A study of Mus musculus with 2 samples.

Results

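The genes described here are *Cd4*, *Cd8a* and *Cd8b1*, which encode the coreceptors of the T-cell receptor (TCR), and 6 genes for transcription factors that set the CD4 or CD8 lineage, *Zbtb7b*, *Gata3*, *Tox*, *Runx1*, *Runx3* and *Cbfb*. They were chosen by symbol for their known roles, and all 9 are among the 21041 genes of the deposited RNA-seq table. The table holds 1 normalised expression value per gene for each of 2 libraries of DP thymocytes, which carry both CD4 and CD8 and make up most of the WT thymus. The first library came from WT mice, which in the study carry the floxed *Cxxc1* allele without Cre. The second came from *Cxxc1*-deficient mice, given in the study as *Cxxc1* fl/fl hCD2-Cre and in the genotype label as Cxxc1+/-. The study reports a much smaller thymus in these mice, in which DP cells were outnumbered by DN cells, which carry neither CD4 nor CD8. The study states an age of 3 to 4 weeks for its mice unless otherwise specified. The human CD2 promoter drives Cre from an early stage of T-cell development and also in other immune cells, and it is active well before the DP stage. The number of mice behind each library is not given in the sources used here.

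A thymocyte passes through a DP stage in which it carries both coreceptors and then keeps one of them. CD4 binds MHC class II and CD8, an alpha-beta heterodimer on thymocytes, binds MHC class I, and the cytoplasmic tails of CD4 and CD8 alpha bring the kinase LCK to the TCR. ThPOK, the product of *Zbtb7b*, drives the CD4 lineage downstream of GATA3 and TOX. RUNX3 drives the CD8 lineage and silences *Cd4* and *Zbtb7b*, and RUNX1 acts on the *Cd4* silencer at earlier stages. Both RUNX factors bind DNA with CBF beta, the product of *Cbfb*. CXXC1 recruits the SETD1 complex, which trimethylates lysine 4 of histone H3, and the comparison asks how loss of CXXC1 changes expression of these genes in DP cells.

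Each genotype has 1 library, so the differences could not be set against a spread between replicates, and p-values are not given. The values summed to 1551994 in the WT library and to 981677 in the *Cxxc1*-deficient library, with a median of 36 in both. The unit is not named and the values are rounded to whole numbers, so the number of reads behind them is not known exactly and no counting interval is given. Olfactory receptor genes, which thymocytes are not known to use, had medians of 23 (WT) and 25 (*Cxxc1*-deficient) and serve as a measure of background. Their lowest values often came in steps, such as 4, 9 and 13 in WT and 5, 10 and 15 in *Cxxc1*-deficient cells. Low values may therefore rest on few reads, and the ranges allowed by rounding below leave out counting error. The targeted gene, *Cxxc1*, had 91 in WT against 50 in *Cxxc1*-deficient cells, and 66 of the 200 genes nearest to it in mean value were lower by at least as much. Cre removes only exons 4 and 5, so a value summed over the whole gene does not test the deletion. The study tested it directly in DP cells, where *Cxxc1* mRNA was almost undetectable by qPCR and western blot showed loss of the protein. Of the 15 genes of the table that lie on the Y chromosome, the WT library had 0 above 0 and the *Cxxc1*-deficient one had 7. Values among these 7 went as low as 2 (*Zfy1* and *Zfy2*), below the olfactory receptor median. *Xist*, the RNA of the inactive X chromosome, had 2419 in WT against 1021 in *Cxxc1*-deficient cells, so the second library had Y-linked values above 0 beside abundant *Xist*. The number and sex of its mice are not given, and sex and genotype cannot be told apart.

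With the values as deposited, 7 of the 9 genes had lower values in *Cxxc1*-deficient DP thymocytes, and the sizes differed widely between them. Scaled to the same sum or to the same median of well-expressed genes, 4 of the 9 were lower. As deposited, the lower genes were *Cd8a*, *Cd8b1*, *Cbfb*, *Cd4*, *Runx1*, *Gata3* and *Zbtb7b*, in order from the largest fold reduction to the smallest, and the 2 with higher values were *Tox* and *Runx3*. The first 4 of these, the coreceptor genes and *Cbfb*, differed by 2-fold or more, and 0 of the 9 were higher by 2-fold or more. Over the 20125 genes above 0 in at least 1 library, 17.4% were at least 2-fold lower and 5.89% were at least 2-fold higher. Scaled to the same sum, the libraries gave 5.68% lower and 21.1% higher instead. Lower values were far more common among well-expressed genes, meaning here those whose mean over both libraries reached 100. Of these 2472 genes, 56.8% were lower by 2-fold or more and 0.485% were higher by 2-fold or more. The same 4 genes are 4 of the 7 described here that reach that mean, a share close to that of well-expressed genes as a whole. As a log2 ratio of the *Cxxc1*-deficient to the WT value, the median was -0.62 over the 9 genes, -0.20 over all genes and -1.08 over well-expressed genes.

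**Figure D1:**
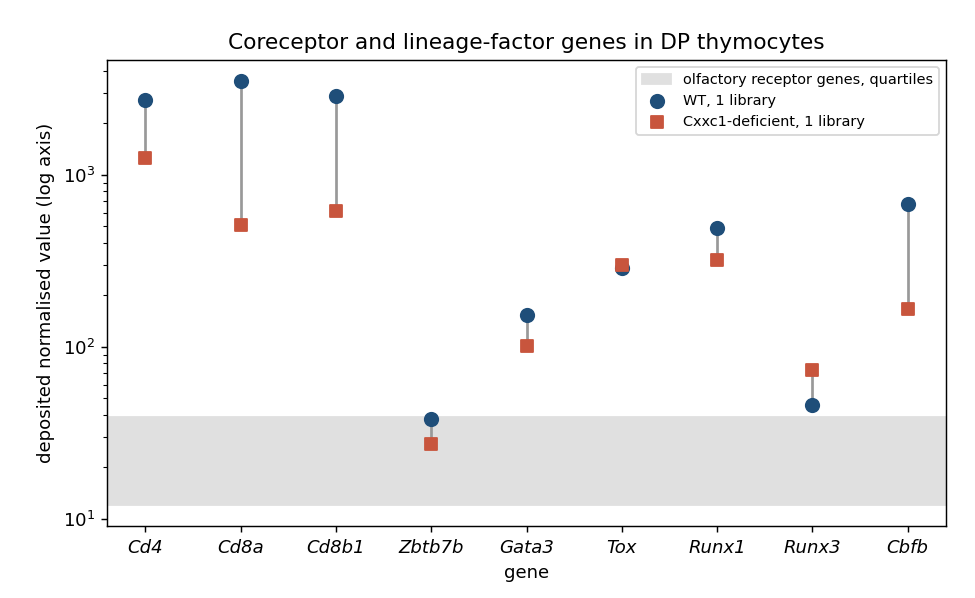
Deposited normalised value (log axis) of each of the 9 genes in the WT library (circles) and the *Cxxc1*-deficient library (squares), with the quartiles of olfactory receptor genes as a grey band that runs from the lower of the 2 libraries' 25th percentiles to the higher of their 75th percentiles. The squares of both CD8 genes lie far below their circles, *Tox* has nearly equal values, *Runx3* is the gene whose square lies clearly above its circle, and both values of *Zbtb7b* lie within the band.

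The 2 CD8 genes showed the largest differences. *Cd8a* encodes the alpha chain and lies on chr6:71323421-71329165 of mm9, on the plus strand. The gene had a value of 3503 in WT against 507 in *Cxxc1*-deficient cells, or 6.91-fold less. *Cd8b1* encodes the beta chain and lies upstream on the same strand, on chr6:71272830-71287471. Its value was 2855 in WT against 611 in *Cxxc1*-deficient cells, or 4.67-fold less. The alpha-chain gene thus had the higher value in WT and the lower one in *Cxxc1*-deficient cells, with a *Cd8a* to *Cd8b1* ratio of 1.23 in WT against 0.830 in *Cxxc1*-deficient cells. A ratio of this kind is not affected by the scaling of the libraries. Rounding to whole numbers allows a range from 1.475 to 1.482 for the 1.48-fold larger reduction of *Cd8a*, and the replicate error is unknown.

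*Cd4*, which lies on chr6:124814710-124838239 on the minus strand, differed less. Its value was 2728 in WT against 1257 in *Cxxc1*-deficient cells, or 2.17-fold less. In WT cells *Cd4* had the lowest value of the 3 coreceptor genes, and in *Cxxc1*-deficient cells it had the highest. The *Cd4* to *Cd8a* ratio was 0.779 in WT against 2.48 in *Cxxc1*-deficient cells, a 3.18-fold shift in favour of *Cd4*, and the *Cd4* to *Cd8b1* ratio shifted 2.15-fold, from 0.956 to 2.06. Ordered among all genes of its library, *Cd4* moved from position 13 by value in WT to position 8 in *Cxxc1*-deficient cells, *Cd8b1* from 12 to 28 and *Cd8a* from 7 to 42. All 3 coreceptor genes remained far above the background in both libraries, at 20.3 times the olfactory receptor median or more. DP cells are defined by the surface proteins that these genes encode, so both libraries come from cells that carry some of each. In bulk RNA, fewer cells with the transcript and less transcript per cell cannot be told apart. For the CD8 genes the study adds other evidence from *Cxxc1*-deficient DP cells. It reports less mRNA of both genes by qPCR on replicate samples, and less CD8 alpha and CD8 beta protein by flow cytometry.

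The levels of well-expressed genes were lower throughout the *Cxxc1*-deficient library, so each gene was set beside the 200 genes nearest to it in mean value. For *Cd8a*, whose neighbours had a median log2 ratio of -1.59, the log2 ratio was -2.79, and 4 of the 200 were at least as low. For *Cd8b1* the log2 ratio was -2.22, and 25 of 200 were at least as low. *Cd4*, with a log2 ratio of -1.12, lay on the other side of the same median, and 154 of its 200 neighbours were at least as low. The coreceptor genes are among the most highly expressed genes of the table and share nearly all of their neighbours, which have means from 437.5 to 17767. The window stops at the top of the ranking, so most of these neighbours have lower means than the coreceptor genes. Those means were 2005 for *Cd8a*, 1992.5 for *Cd4* and 1733 for *Cd8b1*. The median of the neighbours thus stands for the top of the table rather than for genes of exactly this level. The CD8 genes were lower than that median, whereas *Cd4* was less reduced. The difference from it was 0.47 on the log2 scale for *Cd4* against -1.20 for *Cd8a* and -0.64 for *Cd8b1*. The 4 neighbours that were lower by at least as much as *Cd8a* were *Ptms* (14.8-fold), *Tmsb4x* (12.5-fold), *Dntt* (10.8-fold) and *Rsrp1* (7.05-fold). *Dntt* encodes terminal deoxynucleotidyl transferase, which adds bases during V(D)J recombination, and *Ptms* and *Tmsb4x* encode small proteins of the parathymosin and beta-thymosin kinds.

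**Figure D2:**
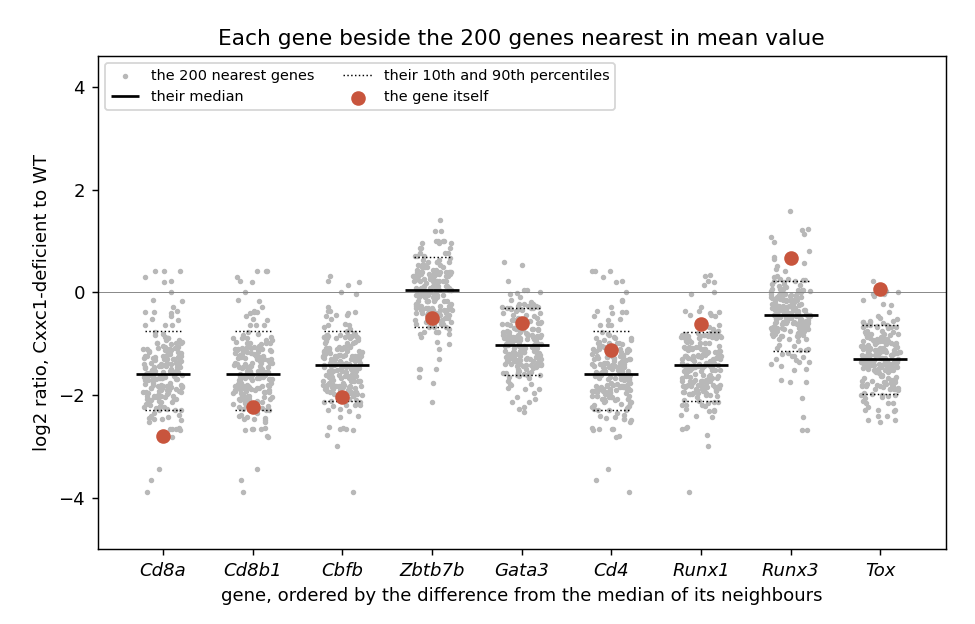
Log2 ratio of *Cxxc1*-deficient to WT for each of the 9 genes (large points) beside the 200 genes nearest to it in mean value (small points), with their median (bar) and their 10th and 90th percentiles (dotted). *Cd8a* lies below the 10th percentile of its neighbours, *Runx1*, *Runx3* and *Tox* lie above the 90th, and the other genes lie between these limits.

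**Figure D3:**
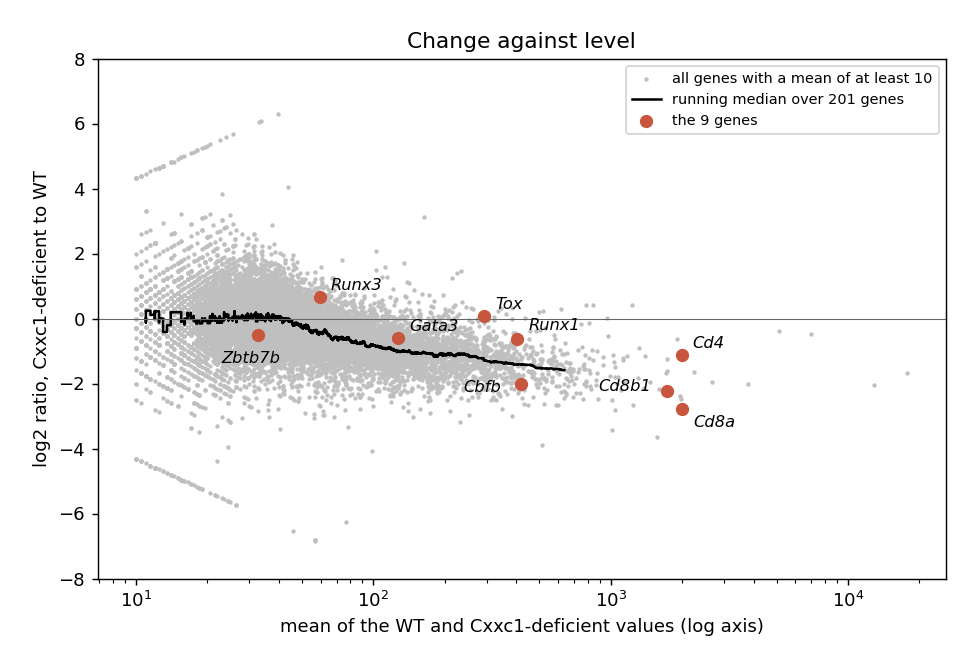
Log2 ratio of *Cxxc1*-deficient to WT against the mean of both values (log axis) for all genes with a mean of at least 10, with the 9 genes marked and a running median as a line. The line stays near 0 at low means and declines to below -1 at high means, with *Cd8a*, *Cd8b1* and *Cbfb* below it or its extension together with *Zbtb7b*, and *Tox*, *Runx3*, *Runx1*, *Gata3* and *Cd4* above.

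The genes of the RUNX complex did not move together. *Cbfb*, on chr8:107694574-107741886 on the plus strand, encodes the shared non-DNA-binding partner. Its value was 674 in WT against 165 in *Cxxc1*-deficient cells, or 4.08-fold less, and 23 of its 200 neighbours were at least as low. *Runx1*, on chr16:92601712-92826311 on the minus strand, encodes the RUNX factor that predominates in DP cells. It had 490 in WT against 319 in *Cxxc1*-deficient cells, or 1.54-fold less, whereas the median fold reduction of its neighbours was 2.68 and 185 of 200 were at least as low. *Runx3*, on chr4:134676567-134733905 on the plus strand, had 46 in WT against 73 in *Cxxc1*-deficient cells. It was 1.59-fold higher, with a range from 1.56 to 1.62 allowed by rounding, and 9 of its 200 neighbours had a log2 ratio at least as high. Both *Runx3* values were low, at 2 and 2.92 times the olfactory receptor median.

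Relative to *Cbfb*, both RUNX genes were higher in *Cxxc1*-deficient cells. The *Runx1* to *Cbfb* ratio was 0.727 in WT against 1.93 in *Cxxc1*-deficient cells, a 2.66-fold shift, and the *Runx3* to *Cbfb* ratio shifted 6.48-fold, from 0.0682 to 0.442. The *Runx3* to *Runx1* ratio was 0.0939 in WT against 0.229 in *Cxxc1*-deficient cells, a shift of 2.44-fold. These ratios concern RNA values, not protein or complexes. *Runx2*, the other gene of the family and a regulator of bone formation, had 56 in WT against 85 in *Cxxc1*-deficient cells. *Runx2* and *Runx3* were thus higher and *Runx1* lower, except that *Runx1* was also higher when the libraries were scaled to the same sum or to the same median of well-expressed genes.

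The promoters of these genes span a wide range of CpG content, the sequence that the CXXC domain of CXXC1 is known to bind when unmethylated. The study mapped CXXC1 binding in DP cells. Binding was enriched at the centre of CpG islands, but only a small share of the sites overlapped one. At loci including *Cd8a* it describes binding at upstream or gene-body enhancers, with less H3 lysine 4 trimethylation at the promoters of deficient cells. Binding was not examined here. RefSeq promoter windows of 300 bases (250 before and 50 after the transcription start, from GRCm38.p6) were found for 6 of the 9 genes, with 9 windows in all, and each matched 1 place on its chromosome in mm9. The median over all 32851 windows of the table was 7 CG. The *Cd8a* window held 3, of which 0 lay before the start, whereas that of *Cbfb* held 30, more than 88.3% of all windows. As deposited, the genes at least 4-fold lower thus include 1 with a CpG-poor and 1 with a CpG-rich promoter, and *Cd8b1*, which had no window. *Cbfb* was less than 4-fold lower with each of the 5 scalings used below. The bases before the start are shown for both, 5′ to 3′, with every CG in capitals (that of *Cd8a* has none). The *Cd8a* sequence is at chr6:71323171-71323420 on the plus strand of mm9, and that of *Cbfb* at chr8:107694324-107694573 on the plus strand.

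Cd8a: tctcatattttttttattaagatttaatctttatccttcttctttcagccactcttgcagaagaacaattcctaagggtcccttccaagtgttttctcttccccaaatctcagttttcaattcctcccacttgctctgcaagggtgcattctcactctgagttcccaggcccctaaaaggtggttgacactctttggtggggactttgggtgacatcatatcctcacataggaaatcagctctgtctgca

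Cbfb: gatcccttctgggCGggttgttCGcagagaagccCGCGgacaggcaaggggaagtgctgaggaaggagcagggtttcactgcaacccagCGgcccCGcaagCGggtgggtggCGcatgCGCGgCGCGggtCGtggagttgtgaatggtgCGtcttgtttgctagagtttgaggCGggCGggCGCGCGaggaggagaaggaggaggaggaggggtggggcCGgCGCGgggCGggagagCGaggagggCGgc

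Both *Runx1* and *Runx3* have a distal and a proximal start. For *Runx3* the distal window held 8 CG and the proximal one 45, and for *Runx1* they held 2 and 35. The letters TGTGGT, a core that RUNX factors are known to bind, were searched on both strands. They occurred 2 times in the distal window of *Runx3*, 2 times in that of *Runx1* and once in the inner window of *Zbtb7b*, and 16.8% of all windows held at least one. The distal *Runx3* sequence before the start, at chr4:134676310-134676559 on the plus strand of mm9, is shown. It belongs to a gene that was higher and holds the letters on the reverse strand, as ACCACA in capitals. *Tox*, also higher, had no window, and the distal window of *Runx1*, which was lower as deposited, held the letters as often.

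Runx3: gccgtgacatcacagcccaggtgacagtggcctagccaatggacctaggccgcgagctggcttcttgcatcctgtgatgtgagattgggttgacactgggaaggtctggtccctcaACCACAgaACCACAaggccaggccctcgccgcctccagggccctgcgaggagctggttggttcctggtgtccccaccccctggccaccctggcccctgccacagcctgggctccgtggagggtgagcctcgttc

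The letters AGATAA, which GATA factors are known to bind, occurred in 0 of the 9 windows and in 11.2% of all windows. The *Gata3* window held 22 CG, and those of *Zbtb7b* held 8 and 7. The deposited values are summed per gene and do not separate distal from proximal transcripts.

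The 3 factors of the CD4 side differed in level. As deposited, *Zbtb7b* and *Gata3* were lower and *Tox* was slightly higher, but all 3 were higher with the same sum and with the same median of well-expressed genes. *Zbtb7b*, on chr3:89181566-89198698 on the minus strand, had 38 in WT against 27 in *Cxxc1*-deficient cells, which is 1.65 and 1.08 times the olfactory receptor median. Its value in WT was close to the median of 36 over all genes, so neither library showed *Zbtb7b* clearly above background. Its fold reduction was 1.41, rounding alone allows 1.36 to 1.45, and 36 of its 200 neighbours were at least as low. An annotated transcript on the opposite strand, *Gm15417*, overlaps the gene and had 51 in both libraries, and the sources used here do not say whether reads were counted by strand. The same limit holds for *Gata3*, *Tox*, *Runx1* and *Runx3*, which overlap annotated antisense genes that the table does not list.

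*Gata3*, on chr2:9778705-9811661 on the minus strand, encodes a zinc-finger factor required for T-cell commitment and again for the CD4 lineage. It had 153 in WT against 101 in *Cxxc1*-deficient cells, or 1.51-fold less. Its neighbours had a median fold reduction of 2.02, and 158 of 200 were at least as low. *Tox*, on chr4:6613500-6918704 on the minus strand, encodes an HMG-box factor needed for CD4 lineage development. It had 287 in WT against 300 in *Cxxc1*-deficient cells, a log2 ratio of 0.06. Among its 200 neighbours, whose median fold reduction was 2.45, 1 had a log2 ratio at least as high and 2 had a higher value in *Cxxc1*-deficient cells than in WT. *Tox* was thus the gene farthest above its neighbours of the 9, by 1.36 on the log2 scale, ahead of *Runx3* at 1.10, *Runx1* at 0.80, *Cd4* at 0.47 and *Gata3* at 0.42. Of the 4 genes below their neighbours' median, *Cd8a* was followed by *Cd8b1*, *Cbfb* at -0.61 and *Zbtb7b* at -0.54. Each gene kept its side of that median in all 8 alternative ways of choosing neighbours or treating low values.

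The ratios themselves depended on how the libraries were scaled. With 5 scalings, the fold reduction ran from 3.46 to 6.73 for *Cd8a*, from 2.34 to 4.55 for *Cd8b1*, from 2.05 to 3.98 for *Cbfb* and from 1.09 to 2.11 for *Cd4*. These 4 genes were lower in *Cxxc1*-deficient cells in all 5. *Runx1* and *Gata3* were lower in 3 of 5 and *Zbtb7b* in 2 of 5, and *Tox* and *Runx3* were higher in all 5, with log2 ratios from 0.10 to 1.06 and from 0.70 to 1.66. The order of the 9 genes by ratio cannot change under a scaling of this kind, which multiplies a whole library by 1 factor. Other treatments can change it. With the olfactory receptor median subtracted, the log2 ratio was -2.91 for *Zbtb7b*, a gene near background, and -2.85 for *Cd8a*.

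**Figure D4:**
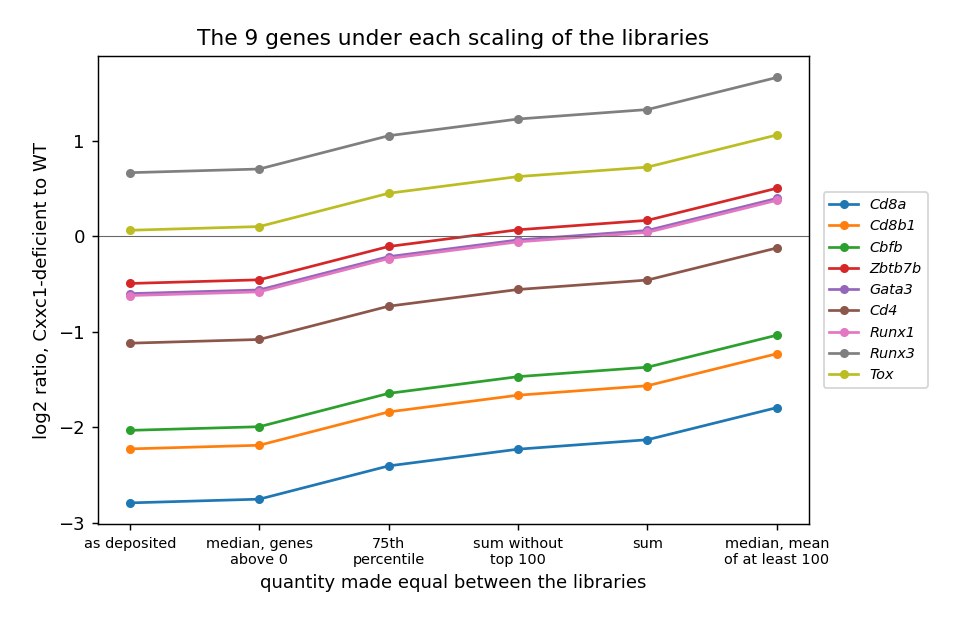
Log2 ratio of *Cxxc1*-deficient to WT of the 9 genes with the values as deposited and with 5 scalings of the libraries. The lines run in parallel because a scaling adds the same amount to every gene, *Cd8a*, *Cd8b1*, *Cbfb* and *Cd4* stay below 0 throughout, and *Runx1*, *Gata3* and *Zbtb7b* cross 0.

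Other regulators of the coreceptor loci and of lineage choice, a list of 25 genes, were mostly lower with the values as deposited. In all, 23 had a lower value in *Cxxc1*-deficient cells, 14 of them by 2-fold or more, and 0 were higher by 2-fold or more, with a median log2 ratio of -1.02. The corresponding shares were 17.4% lower over all genes and 56.8% over well-expressed ones. With 4 of the 5 scalings, the 14 became 1 to 8 and 1 or 2 genes were higher by 2-fold or more, and the median came as close to 0 as -0.028. The list holds 17 well-expressed genes, a group in which lower values were the rule, and 13 of the 25 genes lay below the median of their own 200 neighbours. The lowest ratios among the well-expressed ones belonged to *Satb1*, a genome organiser of thymocytes, with 6080 in WT against 1492 in *Cxxc1*-deficient cells, and to *Ets1*, an ETS-family factor, with 1677 and 479. The highest ratios belonged to *Tcf7* and *Smarca4*. *Tcf7* encodes TCF1, which acts with LEF1 upstream of ThPOK, and had 5826 in WT against 4461 in *Cxxc1*-deficient cells, with 189 of its 200 neighbours at least as low. *Smarca4* encodes the BRG1 remodelling ATPase and had 406 and 238, with 170 of 200 at least as low.

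Paralogues of the factors had low to moderate values. The 9 family paralogues (*Runx2*, *Gata1*, *Gata2*, *Gata4*, *Tox2*, *Tox3*, *Tox4*, *Zbtb7a* and *Zbtb7c*) ranged from 17 to 107 in WT and from 23 to 85 in *Cxxc1*-deficient cells, with a median log2 ratio of -0.05 that turned positive with 4 of the 5 scalings, up to 0.95, and 1 of them, *Tox4* with 76 and 35, was at least 2-fold lower. The scaling that gave the paralogues 0.95 also brought the median over all genes to 0.795. The highest value of any *Tox* family gene other than *Tox* itself was the 76 of *Tox4* in WT.

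Genes of the mature lineages also stood at low values, apart from a few of the CD4 side. Among 9 genes of a CD4-lineage list, 5 were lower by 2-fold or more and 0 higher by 2-fold or more, with a median log2 ratio of -1, beside 17.4% lower over all genes and 56.8% over well-expressed ones. With 4 of the 5 scalings the 5 became 1 or 2, and the median came as close to 0 as -0.0034. The well-expressed ones were *Cd28*, the costimulatory receptor, with 1816 in WT against 393 in *Cxxc1*-deficient cells, *Ccr4*, a chemokine receptor, with 186 and 69, and *Cd5*, a brake on TCR signalling, with 212 and 100. *Cd28* is as much a gene of DP cells as of the CD4 lineage. *Cd40lg*, the ligand that helper cells show to B cells, had 36 and 41. Among 11 genes of a CD8-lineage list, 0 differed by 2-fold in either direction as deposited, and the median log2 ratio was 0.18. With 4 of the 5 scalings, 2 to 7 were higher by 2-fold or more, with a median of up to 1.18. The same 4 scalings also raised the share of all genes at least 2-fold higher, which was 5.89% as deposited. That share was 37.23%, with an all-gene median of 0.795, under the scaling that gave 7 and 1.18. It was 21.13% with the same sum, which gave 5. With the olfactory receptor median subtracted, 4 of the 11 were lower and 4 higher. The 11 genes ranged from 15 to 102 in WT and from 17 to 54 in *Cxxc1*-deficient cells. Of the 11, 0 were well expressed. *Itgae*, the CD103 gene that RUNX3 is known to activate, had 33 and 46.

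The genes that flank the coreceptor loci differed between the loci. The next listed gene beyond *Cd8a* is *Rmnd5a*, which encodes a subunit of a ubiquitin ligase complex and starts 67.2 kb from the *Cd8a* start. It had 2256 in WT against 513 in *Cxxc1*-deficient cells, or 4.40-fold less, close to the 4.67-fold of *Cd8b1*. On the other side, *Smyd1*, a muscle methyltransferase gene that starts just before *Cd8b1* on the opposite strand, had 44 and 49. At the *Cd4* locus, *Lag3*, a CD4-related inhibitory receptor gene, had 45 in WT against 42 in *Cxxc1*-deficient cells, and *Gpr162* on the other side had 62 and 42. Beyond *Lag3*, with its start 29.7 kb from that of *Cd4*, lies *Ptms*, which had 962 and 65. *Cd4* thus had low-valued genes directly on either side, whereas the CD8 genes and *Rmnd5a* form a stretch of highly expressed genes that were all more than 4-fold lower with the values as deposited. Genes of that level were lower in general. *Rmnd5a* is one of the 200 neighbours of *Cd8a*, whose median fold reduction was 3.01. The log2 ratio of *Rmnd5a*, -2.14, lay between the 10th and 25th percentiles of these neighbours, -2.29 and -1.95.

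**Figure D5:**
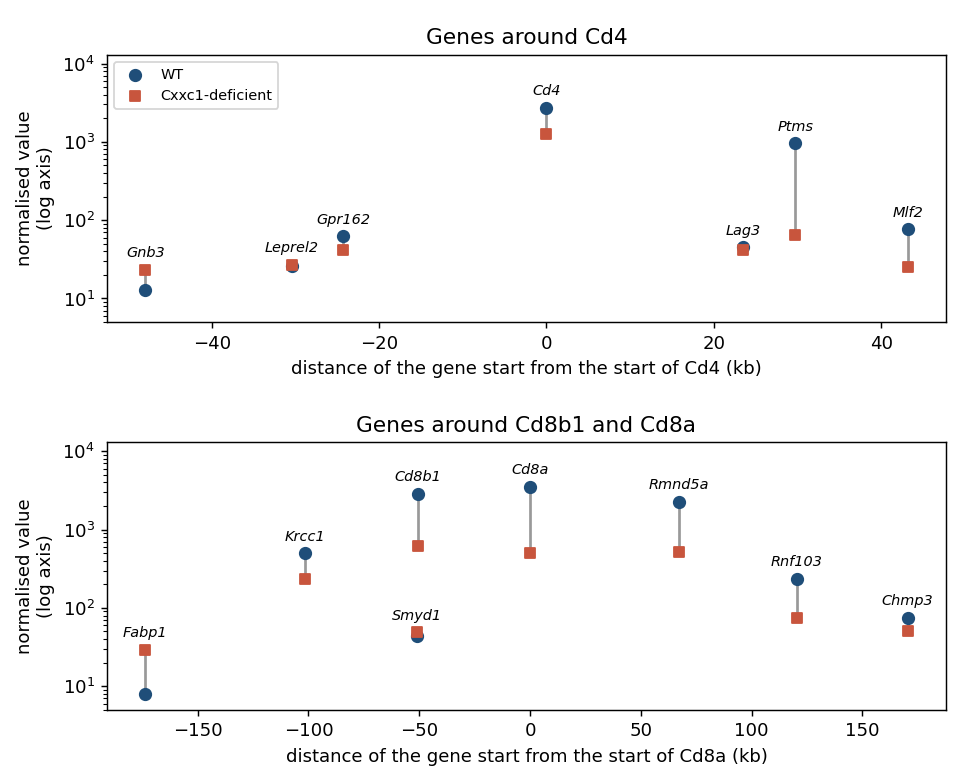
Deposited normalised value (log axis) of the listed genes nearest to *Cd4* (top) and to *Cd8b1* and *Cd8a* (bottom) in WT (circles) and *Cxxc1*-deficient cells (squares), against the distance of their start from that of *Cd4* or *Cd8a* along the chromosome. *Rmnd5a* resembles the CD8 genes in both libraries, and *Lag3* and *Gpr162* on either side of *Cd4* lie near background.

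Markers of other cells were followed because several of these genes are used outside DP cells, *Gata3* and *Runx3* in DN thymocytes and innate lymphocytes, and *Cd4* and *Cd8a* in dendritic cells. The recombinase gene *Rag1*, a defining gene of DP cells, was among the highest of the table, with 20778 in WT against 5058 in *Cxxc1*-deficient cells. The DP list holds 13 genes, of which 3 are the coreceptor genes themselves, and all were above 0 in both libraries. All 13 were lower in the *Cxxc1*-deficient library, as were 95.2% of well-expressed genes, except that *Cd3e* was higher with the same sum, and *Cd3e* and *Ptcra* with the same median of well-expressed genes. Of the 13, 12 were well expressed and 9 lay below the median of their own 200 neighbours. Besides *Dntt*, the lowest ratio belonged to *Cd3d*, a chain of the TCR complex, which had 680 and 85 and was lower than each of its 200 neighbours, and the highest to *Cd3e*, another chain of that complex, with 2304 and 1490. The 6 genes of the DN list were all higher in the *Cxxc1*-deficient library, and their values summed to 317 in WT against 697 in *Cxxc1*-deficient cells. Of these, *Il2ra*, which encodes CD25, had 63 and 207, and *Notch1* had 124 and 326. The others were less than 2-fold higher, with values from 28 to 52 over both libraries, beside a median of 36 over all genes. Of genes with a mean below 50, 47.8% were lower as deposited. *Ptcra*, a pre-TCR gene placed in the DP list, went the other way, with 79 and 44. The part of DN-stage RNA in the higher *Runx3* value and in the small differences of *Tox* and *Gata3* was not tested. For 7 NK and innate lymphoid genes the values summed to 192 in WT against 133 in *Cxxc1*-deficient cells, with none above 47 and *Tyrobp* at 0 in the *Cxxc1*-deficient library. The 6 B-cell genes summed to 196 and 167, the 9 listed macrophage and dendritic cell genes to 357 and 329 (with *Itgam* at 101 and 107), and the 4 listed erythroid genes to 104 and 129, and each of these sums was below the value of any single coreceptor gene in the same library.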

How the data were processed

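mRNA-seq of DP thymocytes was analysed for 1 WT and 1 *Cxxc1*-deficient library, grouped by their titles. Per the labels and the study's methods, reads were processed with CASAVA 1.8.2, mapped to mm9 with Bowtie 1.0.1 (a tool named in the submitters' processing notes), kept where they mapped uniquely, and summarised with Partek. The deposited values are a score, a normalised expression value of unnamed unit that the authors rounded to whole numbers. The gene annotation is not given in the sources used here. The median WT value was 28 for the 4591 genes with the shortest transcripts and 50 for the 4586 with the longest, whose median lengths are 1029 and 5380.5 bases, far less than in proportion to length, as for a value corrected for length. Levels of different genes are compared on that footing.

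Ratios were taken between the values as deposited, each raised to at least 1, with the study's threshold of 2-fold. The 200 neighbours of a gene are those nearest in rank of mean value, ties being ordered by symbol. Near the top of the ranking the window stops there and reaches further down instead. The ranges allowed by rounding assume an error of up to 0.5 in each value. No test was run. Gene positions come from GENCODE vM1 (NCBIM37, which is mm9), where 19090 of the 21041 genes matched by symbol, and promoters from RefSeq. The code was tested on simulated data. That check required the size of a difference from neighbours to be recovered with neighbours by WT value, and only its direction with neighbours by mean. With neighbours by WT value, the differences of the 9 genes ran from -1.12 for *Cd8a* to 1.30 for *Tox*. The genes and lists were chosen with earlier results of these data known. Named genes were the 9 members, *Cxxc1*, in each list the 2 lowest and 2 highest ratios among genes with a mean of at least 100, the neighbours at least as low as the lowest member, and the genes flanking the coreceptor loci. Others were named after their values were seen. Alternatives were 5 scalings of the libraries, pseudocounts of 1 and 10, subtraction of the olfactory receptor median, other neighbours and other thresholds. Python 3.11.15, numpy 2.4.6, pandas 2.3.3 and matplotlib 3.10.9 were used.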

Additional observations from a re-analysis of the deposited data

How the results depend on the processing

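The number of the 9 genes at least 2-fold lower was 4 as deposited and from 3 to 5 under each scaling, pseudocount and subtraction tried, with 6 at 1.5-fold and 3 at 3-fold. *Cd4* left the count with 4 of the 5 scalings, and *Zbtb7b* entered it when the olfactory receptor median was subtracted, with a fold reduction of 7.5. That fold compares small remainders, because *Zbtb7b* stood at only 1.65 (WT) and 1.08 (*Cxxc1*-deficient) times that median before subtraction. The number of genes below the median of their neighbours was 4 in all 8 alternatives. A value was taken as moved when it changed by more than 1.5-fold. The scalings multiplied the *Cxxc1*-deficient library by 1.03 to 1.995, and over all genes the median log2 ratio, -0.20 as deposited, became -0.16 to 0.80. No paired analysis was possible because there is 1 library for either genotype and nothing was tested, and no library could be left out for the same reason.

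The lists followed the scaling. With the same sum, the median log2 ratios were 0.61 for paralogues, -0.36 for other regulators, -0.34 for the CD4-lineage list and 0.84 for the CD8-lineage list, and with the same median of well-expressed genes they were 0.95, -0.028, -0.0034 and 1.18. Subtraction gave -0.87 for paralogues. The counts at least 2-fold lower, in the order same sum, same 75th percentile, same sum without the 100 highest genes and same median of well-expressed genes, were 4, 8, 5 and 1 for other regulators (14 as deposited), 1, 2, 1 and 1 for the CD4-lineage list (5 as deposited) and 0 throughout for paralogues (1 as deposited). In the same order, the counts at least 2-fold higher, all 0 as deposited, were 2, 1, 1 and 2 for other regulators, 1, 1, 1 and 2 for the CD4-lineage list, 3, 1, 3 and 3 for paralogues and 5, 2, 4 and 7 for the CD8-lineage list. Over all genes, 21.13% were at least 2-fold higher with the first of these scalings and 37.23% with the last. At 1.5-fold, 3 paralogues and 4 CD8-lineage genes were lower, and 3 paralogues, 1 other regulator, 1 CD4-lineage gene and 2 CD8-lineage genes were higher. At 3-fold, 5 other regulators, 1 CD4-lineage gene and 0 paralogues were lower. With a pseudocount of 10, 0 paralogues were 2-fold lower. After subtraction, 4 paralogues and 4 CD8-lineage genes were lower, and 2 paralogues, 1 other regulator, 1 CD4-lineage gene and 4 CD8-lineage genes were higher. Counting only well-expressed genes, 3 of the CD4-lineage list were lower, and the filter left no paralogue or CD8-lineage gene. These changes follow from the factors, thresholds and filters themselves.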

Other observations

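At the *Cd8* locus, *Rnf103*, a ubiquitin ligase gene beyond *Rmnd5a*, had 234 (WT) and 75 (*Cxxc1*-deficient), and *Krcc1*, which lies within the span of *Smyd1*, had 496 and 237. Their fold reductions were 3.12 and 2.09. Both were named after their values were seen.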
